A study of Mus musculus with 9 samples.

Results

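Muscle fibres carry action potentials along their surface membrane, the sarcolemma, and 5 genes of that membrane are described here across the first 2 postnatal weeks of the mouse: Clcn1, Scn4a, Scn4b, Atp1b1 and Atp1b2. They were taken by symbol, with 1 probe set per gene, the one of highest mean over all arrays among those annotated to a single gene. A single-gene probe set was found for 4 of the 5, out of 22180 named genes. Scn4a, the main sodium channel of adult skeletal muscle, had no probe set annotated to it alone and was not analysed here. RNA was taken from hindlimb skeletal muscle of mice of mixed strain at postnatal day 2 (P2), P7 and P14, with 3 biological replicates and 3 arrays at each age. No treatment or allele was named, and the labels do not say whether animals were pooled for a replicate.

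Sodium channels open to start the muscle action potential, and their beta subunits change the gating and placing of the pore-forming alpha subunit. The chloride channel ClC-1, made from Clcn1, gives the resting membrane of mature fibres most of its conductance and keeps them from firing repeatedly; its loss causes myotonia. In rodents the chloride conductance of fibres is low at birth and grows as they mature. The sodium pump restores the sodium and potassium gradients after each action potential; its alpha subunit moves the ions and its beta subunit is needed for the complex to fold and reach the surface.

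All values are log2 intensities as deposited, so 1 unit is a factor of 2, and a level is not compared between genes because each probe set responds to its own transcript differently. Array medians lay between 3.29 and 3.36 over all probe sets, and replicates correlated at 0.953 to 0.984 across genes. The P2 arrays were the most variable, with a median SD of 0.251 for a gene, against 0.203 at P7 and 0.163 at P14. On the second principal component P2 replicate 2 lay at -33.2, apart from P2 replicates 1 and 3 at 21.5 and 27.8. Without it, the log2 changes at P14 against P2 were 1.81 for Clcn1, 2.38 for Scn4b, 1.74 for Atp1b1 and 1.10 for Atp1b2, each still called. Skeletal alpha actin (Acta1) averaged 11.94, 11.98 and 12.12 at P2, P7 and P14, and muscle creatine kinase (Ckm) 10.22, 10.72 and 11.21. A background level was set at 3.23, the 95th percentile of 1432 smell, taste and pheromone receptor genes.

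The chloride channel gene Clcn1 stepped up at each age. Its log2 intensity was 5.35, 5.35 and 5.34 in the P2 arrays, 6.21, 6.13 and 6.26 in the P7 arrays, and 7.10, 7.24 and 7.12 in the P14 arrays. The 3 ages did not overlap, and the arrays of an age lay close together. P14 was 3.50-fold higher than P2 (log2 change 1.81 ± 0.15, SE, n = 3 at each age; limma adjusted p = 3.89e-06). P14 was also 1.94-fold higher than P7 (log2 0.95 ± 0.15, adjusted p = 0.00320). P7 was 1.81-fold higher than P2 (log2 0.85 ± 0.15, adjusted p = 0.0308), but this call was lost when single arrays were left out. The adjusted p was then 0.0761 without P2 replicate 1; 0.0985, 0.0817 and 0.135 without P7 replicates 1, 2 and 3; and 0.0627, 0.0651 and 0.0668 without P14 replicates 1, 2 and 3. The log2 change itself moved little, between 0.82 and 0.89. In whole muscle, more RNA per fibre and a larger share of fibres among the cells cannot be told apart, here or for the other genes.

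**Figure D1:**
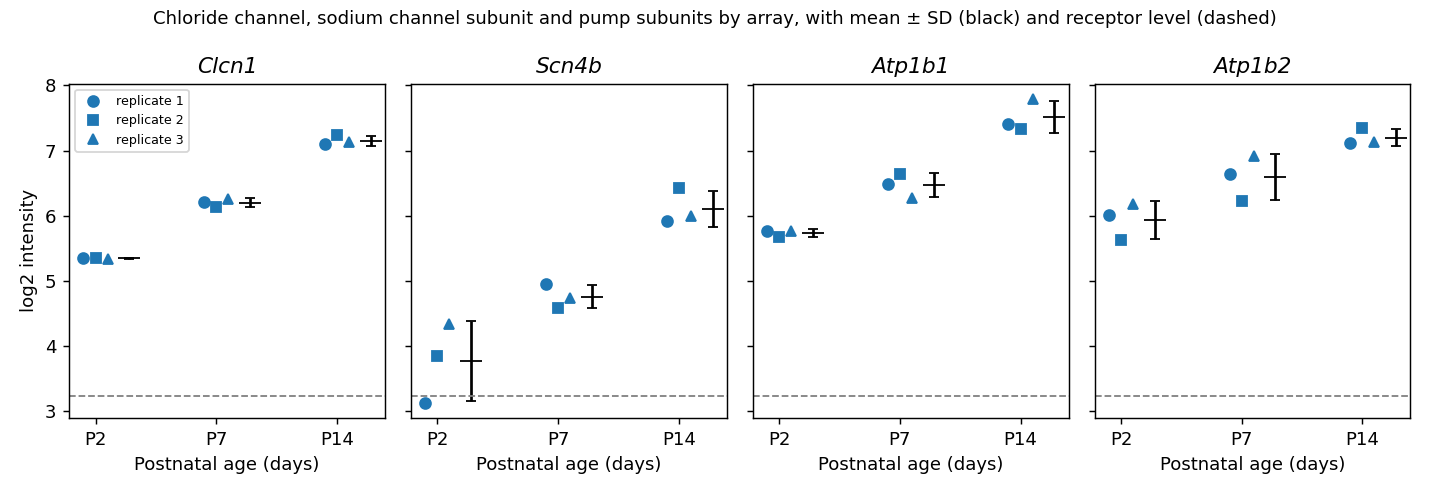
Log2 intensity (vertical axis) of Clcn1, Scn4b, Atp1b1 and Atp1b2 at P2, P7 and P14. Each symbol is 1 array, black bars are the mean ± SD of 3 arrays, and the dashed line is the background level of 3.23; in every panel the 3 ages are separate, and only P2 replicate 1 of Scn4b (3.13) lies under the line.

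The P2 arrays differed more for some of these genes than for others. The SD among them was 0.0087 for Clcn1, 0.055 for Atp1b1, 0.28 for Atp1b2 and 0.61 for Scn4b. P2 replicate 1 was the lowest of the 3 for Scn4b only. Among 14 skeletal fibre markers it was the lowest for 10, including the fast myosin Myh4 (5.33, 8.85 and 10.26 in P2 replicates 1, 2 and 3) and the calcium buffer parvalbumin, Pvalb (4.86, 6.65 and 7.21), and not the lowest for the other 4, Acta1, Ttn, Neb and Myh8. The SD of the 14 at P2 ranged from 0.048 for Acta1 to 2.54 for Myh4. The results for Scn4b without P2 replicate 1 are given in the next paragraph. Beyond leaving out single arrays, the part of this spread in the results for Scn4b was not tested.

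Scn4b encodes the beta 4 subunit of sodium channels, known in neurons of the mouse for its part in resurgent sodium current. Its log2 intensity was 3.13, 3.85 and 4.34 at P2, 4.95, 4.59 and 4.74 at P7, and 5.91, 6.42 and 5.99 at P14. The ages did not overlap, although P2 spread widely and 1 of its arrays was under the background level. P14 was higher than P2 by a log2 change of 2.34 ± 0.26 (SE, n = 3 at each age; limma adjusted p = 4.99e-05), 5.05-fold, a value that depends on signal near background at P2. Against P7, P14 was 2.55-fold higher (log2 1.35 ± 0.26, adjusted p = 0.0123). That call was lost without P7 replicate 2 (adjusted p = 0.0627) or P14 replicate 2 (0.0828), and when all probe sets were tested (0.0948). P7 against P2 gave a log2 change of 0.98 ± 0.26 that did not pass (adjusted p = 0.118). It passed without P2 replicate 3 (log2 1.27, adjusted p = 0.0382). Without P2 replicate 1, the lowest array, it shrank to 0.66 (limma adjusted p = 0.302). The change at P14 against P2 was then 2.01 (limma adjusted p = 0.000112), still called.

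Atp1b1 and Atp1b2 encode the beta 1 and beta 2 subunits of the sodium pump; beta 2 is also known as an adhesion molecule on glia. Atp1b1 had log2 intensities of 5.77, 5.67 and 5.77 at P2, 6.49, 6.64 and 6.27 at P7, and 7.41, 7.33 and 7.79 at P14. Atp1b2 had 6.01, 5.62 and 6.18 at P2, 6.64, 6.22 and 6.92 at P7, and 7.11, 7.34 and 7.13 at P14. Both stood higher at each later age without overlap, but for Atp1b2 the highest P2 array (6.18) and the lowest P7 array (6.22) nearly met. Atp1b1 was 3.42-fold higher at P14 than at P2 (log2 1.78 ± 0.18, SE, limma adjusted p = 1.82e-05) and 2.06-fold higher at P14 than at P7 (log2 1.04 ± 0.18, adjusted p = 0.00503). Its change at P7 against P2 was 0.73 ± 0.18 and did not pass (adjusted p = 0.0948). Atp1b2 was 2.39-fold higher at P14 than at P2 (log2 1.26 ± 0.21, adjusted p = 0.00127). Neither step of Atp1b2 passed alone: it was 0.60 ± 0.21 at P14 against P7 (adjusted p = 0.164) and 0.66 ± 0.21 at P7 against P2 (adjusted p = 0.193).

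The log2 difference between the pump subunits on the same array, Atp1b2 minus Atp1b1, asked whether they changed unequally. It was 0.24, -0.05 and 0.41 at P2, 0.14, -0.42 and 0.65 at P7, and -0.30, 0.01 and -0.67 at P14. The groups overlapped, and an exact permutation test over the 9 arrays gave p = 0.30 (two-sided, 1680 arrangements, smallest possible p 0.00357). No unequal change of these isoforms was detected, which does not show that they changed equally.

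**Figure D2:**
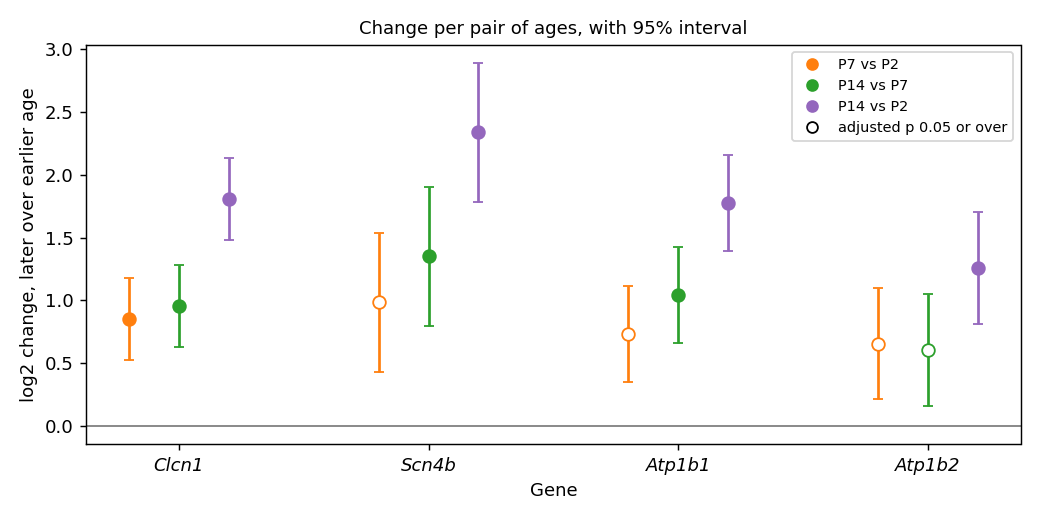
Log2 change (vertical axis) of each gene for P7 over P2, P14 over P7 and P14 over P2, with 95% intervals from the limma fit. Filled points have an adjusted p under 0.05; all 4 genes are filled for P14 over P2, from 1.26 for Atp1b2 to 2.34 for Scn4b.

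Taken by comparison, 4 of the 4 measured genes were called higher at P14 against P2, as were 6.63% of all named genes. At P14 against P7, 3 of 4 were called higher, against 1.72% of all genes. At P7 against P2, 1 of 4 was called higher, against 0.185% of all genes. All 4 had a positive change with an unadjusted limma p under 0.05 in each comparison. The share of all genes at that unadjusted threshold was not counted, here or for the lists below. Counts at that threshold therefore cannot be set against a general rate. The median log2 change of the 4 was 1.79, 0.999 and 0.79 in these comparisons, beside 0.01, 0.02 and -0.01 for all genes. The P2, P7 and P14 arrays stood in rising order with no overlap for all 4, and for 1.78% of all genes. The genes had been chosen with results of these data known, so these counts describe them and do not test them. The comparisons share arrays and are not independent of each other.

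The size of the step was also compared between the intervals, which last 7 and 5 days. Subtracting P7 minus P2 from P14 minus P7 gave log2 differences of 0.10 for Clcn1 (95% interval -0.47 to 0.67), 0.37 for Scn4b (-0.59 to 1.33), 0.31 for Atp1b1 (-0.35 to 0.97) and -0.05 for Atp1b2 (-0.82 to 0.72). limma called 0 of the 4, and 0 had an unadjusted p under 0.05, where 0.194% of all genes were called. The intervals leave room for steps that differ by 0.67 log2 units or more in each gene. The second interval held 52.8% of the change from P2 to P14 for Clcn1, 57.8% for Scn4b, 58.8% for Atp1b1 and 47.8% for Atp1b2.

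Other members of the pump family went different ways. Atp1b4, which in placental mammals is a muscle protein of the inner nuclear membrane and no longer a pump subunit, had log2 intensities of 10.02, 10.10 and 10.16 at P2, 9.94, 9.91 and 9.74 at P7, and 7.60, 7.79 and 7.72 at P14. It was 4.46-fold lower at P14 than at P7 (log2 -2.16 ± 0.16, SE, limma adjusted p = 4.01e-06), and its change at P7 against P2 was -0.23 ± 0.16 (adjusted p = 0.574). Atp1b3, the widely expressed beta 3 subunit, differed by 0.01 ± 0.17 at P14 against P2 (adjusted p = 0.971). Phospholemman, Fxyd1, a small muscle protein that regulates the pump, rose with Atp1b1 and Atp1b2. Its log2 intensity was 6.69, 7.70 and 8.07 at P2, 8.48, 8.56 and 8.79 at P7, and 9.16, 9.39 and 9.21 at P14, a change of 1.77 ± 0.27 at P14 against P2 (adjusted p = 0.000713). P2 replicate 1 was its lowest array, as it was for Scn4b. Of the 6 FXYD genes measured, Fxyd1 alone was called at P14 against P2, with the other 5 between -0.11 and 0.19; the differences between these genes were not tested. Beside this count and those of the channel lists below, 1470 of all 22180 named genes were called higher and 977 lower. Of the pump's alpha subunits, Atp1a4, the sperm form, was measured and was not called.

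**Figure D3:**
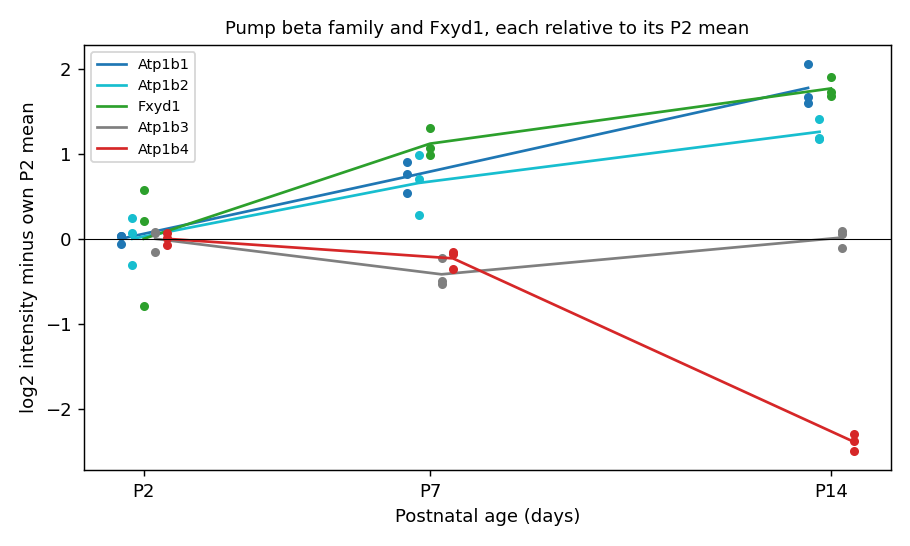
Log2 intensity of 4 beta family genes and Fxyd1 relative to each gene's own P2 mean (vertical axis) by age in days, with 1 point per array and lines through the means. Atp1b1, Atp1b2 and Fxyd1 end 1.26 to 1.78 above their P2 means, Atp1b3 ends at 0.01, and Atp1b4 ends 2.39 below, most of it after P7.

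Among the sodium channel beta subunits, Scn3b moved against Scn4b. Scn3b, the beta 3 subunit, had log2 intensities of 5.34, 4.42 and 5.60 at P2, 4.70, 4.58 and 4.16 at P7, and 4.003, 4.09 and 3.59 at P14. It fell at P14 against P2 (log2 -1.22 ± 0.27, SE, limma adjusted p = 0.00884), with a call that was lost without P14 replicate 3 (adjusted p = 0.0504) or with all probe sets tested (0.0531). Scn2b, which lies beside Scn4b on chromosome 9, stayed near the background level, with means of 3.18 at P2, 3.29 at P7 and 3.295 at P14. Of the 8 sodium channel alpha subunit genes measured, 2 had a mean above background at some age, and limma called 0 at P14 against P2 (2 at an unadjusted p under 0.05; median log2 -0.02). The 2 above background were Scn7a (log2 0.78 ± 0.24, adjusted p = 0.0541) and Scn3a (-0.39 ± 0.22, adjusted p = 0.308). The median thus rests mostly on genes under background.

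Among the CLC chloride channels, chloride-proton exchangers and their partner proteins, Clcn1 and Ostm1 rose and Clcn5 fell of 9 measured genes at P14 against P2, and the median log2 change was 0.08. Clcn5, an exchanger of endosomes, was 1.79-fold lower (log2 -0.84 ± 0.17, SE, limma adjusted p = 0.00588). Ostm1, the partner of the lysosomal exchanger made from Clcn7, was called at 0.75 ± 0.21 (adjusted p = 0.0327), a call that did not last. It was lost without any P2 array (adjusted p = 0.0641, 0.0818 and 0.0503 for replicates 1, 2 and 3) or any P14 array (0.121, 0.122 and 0.0520). It was also lost when its 2 probe sets were averaged (log2 0.32, adjusted p = 0.255), with quantile normalization (0.0514) and with all probe sets tested (0.0965). Clcn2, a widely expressed chloride channel, differed by 0.08 at P14 against P2 (adjusted p = 0.864). Of the 6 cation-chloride cotransporters measured, which set the chloride level inside cells, limma called 0 at P14 against P2, with 0 at an unadjusted p under 0.05 and changes from -0.19 to 0.18. Among 8 genes for anchoring and modulating sodium channels, the syntrophin Sntb1 of the dystrophin complex fell at P14 against P2 (log2 -1.11 ± 0.25, adjusted p = 0.00912; 0.0531 without P14 replicate 1 and 0.0506 with all probe sets tested), and the other 7 were not called.

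**Figure D4:**
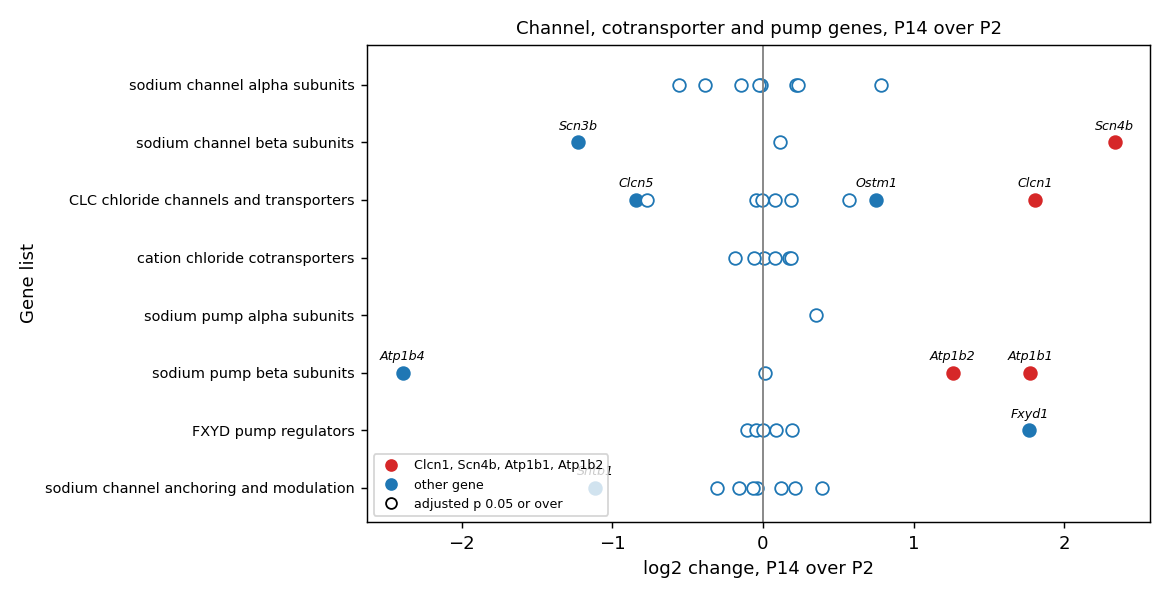
Log2 change at P14 over P2 (horizontal axis) for every measured gene of 8 channel, cotransporter and pump lists (rows). Red points are Clcn1, Scn4b, Atp1b1 and Atp1b2, blue points the other genes, and filled points have an adjusted p under 0.05; filled points lie on both sides of 0, from -2.39 for Atp1b4 to 2.34 for Scn4b.

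Markers of cell types moved with age beside these genes. For the counts below, 1470 of all 22180 named genes were called higher and 977 lower at P14 against P2. Of 14 skeletal fibre markers, 9 rose and 1 fell at P14 against P2. The largest rises were in Pvalb (log2 4.50), Myh4 (4.28), Myh2 (3.59) and Myh1 (3.34), and Myh8 fell (-5.32). The 4 not called were Acta1 (0.17), Ttn (0.10), Des (0.37) and Myh7 (0.48). The log2 of the summed intensity of the 14 ranged from 14.63 to 14.64 in P14 arrays and from 13.64 to 13.89 in P2 arrays. This sum weighs the brightest genes most. Of 6 smooth muscle and pericyte markers, Rgs5 (log2 1.98) and Acta2 (0.86) rose. The other 4 were not called: Pdgfrb (0.46), Myh11 (-0.24), Cnn1 (-0.36) and Notch3 (-0.37). The median of the 6 was 0.11. Their sums, 10.80 to 10.95 at P14 and 9.57 to 9.998 at P2, weigh the brightest genes most. Of 6 fibroblast markers 2 fell, with sums of 11.77 to 11.97 at P14 and 12.28 to 12.72 at P2. Of 6 Schwann cell and nerve markers, limma called 0 (0 at an unadjusted p under 0.05), with sums of 7.33 to 7.91 at P14 and 7.58 to 8.36 at P2; the neurofilament genes Nefl and Nefm were under the background level at every age. Of 7 endothelial markers limma called 0 (4 at an unadjusted p under 0.05), with sums of 9.54 to 9.70 at P14 and 8.86 to 9.51 at P2. Of the other marker lists, 1 of 6 epithelial genes rose, 2 of 5 adipocyte, 1 of 6 cardiac and 1 of 2 erythroid genes fell, and limma called 0 of 5 macrophage genes (1 at an unadjusted p under 0.05). The part of all these shifts in the results for the channel and pump genes was not tested.

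The 4 genes lie on chromosomes 6, 9, 1 and 11. None of their 16 nearest named neighbours, 2 on either side, was called higher at P14 against P2. Of the 16, Nme7 beside Atp1b1 was called lower (log2 -0.67, limma adjusted p = 0.0489). Over all 22180 named genes 6.63% were called higher and 977 genes lower, so 16 neighbours are too few to set them apart from other genes. Across the 9 arrays the 4 genes correlated with each other at Pearson's r of 0.857 to 0.967, a description of arrays that share age. The genes most like each were found among 11384 others with a mean above the median of all genes at some age. For Clcn1 these were Plpp7 (r = 0.995), the muscle noncoding RNA Nctc1 (0.991) and the Popeye membrane protein gene Bves (0.989). For Scn4b they were Rilp (0.993), Rasgrp3 (0.990) and alpha-sarcoglycan, Sgca (0.989). For Atp1b1 they were the exocyst gene Exoc6 (0.985), the chaperone gene Dnajb5 (0.983) and the corepressor gene Hr (0.980). For Atp1b2 they were the F-box gene Fbxw5 (0.985), Trim16 (0.984) and Fsd2 (0.982). No gene was shared between these lists.

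The 250 bases before the annotated start are shown for Clcn1, Scn4b and Atp1b1, from the RefSeq promoter table of GRCm38.p6, to show which motifs of muscle promoters stand in each of these genes that rose together; 3 of the 4 genes matched the table by symbol and Atp1b2 did not. Capitals mark matches, on either strand, to the E box (CANNTG, bound by myogenic bHLH factors), the MCAT motif (CATTCC), the MEF3 motif (TCAGGTT), or the MEF2 and CArG motifs. The windows are chr6:42286435-42286684 (plus strand) for Clcn1, chr9:45138374-45138623 (plus strand) for Scn4b and chr1:164458356-164458605 (minus strand) for Atp1b1.
Clcn1: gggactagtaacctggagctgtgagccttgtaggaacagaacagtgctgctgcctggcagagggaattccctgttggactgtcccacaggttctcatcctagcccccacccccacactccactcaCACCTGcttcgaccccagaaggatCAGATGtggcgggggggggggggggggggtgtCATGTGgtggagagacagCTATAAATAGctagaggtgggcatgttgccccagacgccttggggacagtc
Scn4b: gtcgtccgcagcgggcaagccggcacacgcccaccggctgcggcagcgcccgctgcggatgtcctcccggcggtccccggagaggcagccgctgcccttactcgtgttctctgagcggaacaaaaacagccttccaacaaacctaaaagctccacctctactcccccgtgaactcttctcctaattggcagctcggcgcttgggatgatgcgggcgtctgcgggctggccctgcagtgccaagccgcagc
Atp1b1: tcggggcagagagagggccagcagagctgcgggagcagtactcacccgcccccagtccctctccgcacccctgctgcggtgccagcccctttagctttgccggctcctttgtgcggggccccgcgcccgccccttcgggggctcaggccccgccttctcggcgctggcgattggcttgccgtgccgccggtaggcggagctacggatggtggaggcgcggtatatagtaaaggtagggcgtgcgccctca
The Clcn1 window held 3 E boxes and 1 MEF2 match, which did not overlap each other. The MEF2 match, CTATAAATAG, began 51 bases before the start. A match of letters does not show which protein binds there, and binding was not tested. Over all 32851 promoters of the table, 66.2% held an E box and 2.92% a MEF2 match in the same window. The Scn4b and Atp1b1 windows held none of the 5 motifs, which says only that these letters are not in those 250 bases.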

How the data were processed

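Gene expression was measured on arrays from 9 hindlimb muscle RNA samples, 3 at each of P2, P7 and P14. The deposited values are log2 intensities for 41345 probe sets, made by the authors with RMA and Partek per the submitters' processing notes, without versions; the log base is taken from RMA. The annotation table listed 25335 probe sets, 23521 of them with 1 gene symbol, of which 23328 matched RefSeq (GRCm38.p6) by Entrez number and took its symbol. The brightest probe set of each of 22180 genes was kept, with no filter on dim genes.

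limma 3.58.1 in R 4.3.3 fitted 1 mean per age to all 9 arrays, with eBayes moderation. Tests were two-sided and adjusted by Benjamini-Hochberg over all 22180 genes, and an adjusted p under 0.05 was a call. The fit was tested on simulated data. Each p-value reflects variation among these 9 samples, some of it possibly technical, and precision is limited by their number. Named genes were Clcn1, Scn4b, Atp1b1, Atp1b2, 8 fixed relatives where measured, up to 3 called genes per channel or pump list and pair of ages, and the 3 best-correlated genes for each. Individual markers, Scn2b, Scn3a, Scn7a and Atp1a4 were named after their values were seen. The genes and the 18 context lists, with 108 of 128 genes measured, were chosen with earlier results of these data known. Alternatives covered normalization, filtering, probe set choice, the arrays fitted, moderation, array weights, a replicate block and leaving out each array. Some related genes are not reported here.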

Additional observations from a re-analysis of the deposited data

Results flagged for a closer look

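Atp1b4 changed differently in the 2 intervals. P14 minus P7, less P7 minus P2, gave -1.93 on the log2 scale (limma adjusted p = 0.00796), from means of 10.09 at P2, 9.86 at P7 and 7.70 at P14, and all 3 P14 arrays lay below all P7 arrays. The call was lost without P7 replicate 1 (adjusted p = 0.0532) or P7 replicate 2 (0.0634), and when all 41345 probe sets were tested (0.0822). No such difference was called for Clcn1, Scn4b, Atp1b1 or Atp1b2.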

How the results depend on the processing

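The 4 genes that rose at P14 against P2 were called in all 20 alternatives, and none of the 316 alternative values for Clcn1, Scn4b, Atp1b1 and Atp1b2 reversed a called direction; 14 lost a call and 2 gained one. At P7 against P2, where Clcn1 alone was called, 0 of the 4 were called with all probe sets tested, with only the 2 ages in the fit, with array weights or with a replicate block, and 2 with trended robust moderation; leaving out 1 array gave 0 to 2. At P14 against P7, leaving out 1 array gave 2 to 3, and testing all probe sets gave 2. The main fit did not pair arrays by replicate number, and deviations of same-numbered arrays correlated at -0.06 to 0.08. Whether the numbers mark arrays of shared origin was not tested. With the replicate block the adjusted p of Clcn1 at P7 against P2 was 0.0578. Over all genes, calls at P7 against P2 numbered 73, but 113 with quantile normalization, 184 with a filter on dim genes, 6 with all probe sets, 12 with only the 2 ages and 159 with trended robust moderation. At P14 against P7 they numbered 538, but 871, 272 and 1051 with the filter, all probe sets and only the 2 ages, and 1221 with array weights. The interval difference had 43 calls, and 1 with all probe sets. Leaving out 1 array gave 11 to 206, 214 to 794, 1373 to 2611 (main 2447, P14 against P2) and 18 to 44. The split of 382 higher and 156 lower genes at P14 against P7 was 221 and 192 with quantile normalization, 240 and 213 with cyclic loess and 135 and 137 with all probe sets; at P14 against P2, 1470 and 977 became 1216 and 1318 with cyclic loess. The cause of these shifts was not tested. Scn4b is limited by signal near background at P2.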
